A study of Mus musculus with 4 samples.

Results

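Transcripts of 8 plasma membrane carriers and carrier subunits, which bring amino acids into T cells, were measured in regulatory T cells of the effector type sorted from mouse Peyer's patches, the lymphoid follicles of the small intestine. They are Slc7a1, Slc7a5, Slc7a6, Slc3a2, Slc1a4, Slc1a5, Slc38a1 and Slc38a2, chosen by symbol, and all 8 were found among the 24061 gene rows of the count table. RNA of about 40000 sorted CD4-positive, FoxP3-positive cells lacking CD62L was sequenced in each of 4 libraries, from mice aged 13 weeks on a C57BL/6 background backcrossed for 5 generations. By label, 2 libraries (flox 1 and flox 2) came from mice with both Maf alleles floxed and 2 (wt 1 and wt 2) from mice with intact Maf alleles. Mice of both labels had Cre and yellow fluorescent protein expressed from Foxp3, that is, in regulatory T cells. The series addressed the dependence of transcripts on c-Maf, the transcription factor that Maf encodes. Whether the libraries of a group came from separate animals or from pools is not stated, so a p-value here reflects library-to-library spread, some of which may be technical.

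Maf counts went against 2 of the labels. Maf had 2975 counts (122 CPM, counts per 1000000 of the TMM-scaled library size) in the library labelled flox 1. It had 3071 (149 CPM) in the library labelled wt 1, against 15 (0.725 CPM) in the library labelled flox 2 and 40 (1.98 CPM) in the library labelled wt 2. Maf was thus high in the libraries numbered 1 and low in those numbered 2, whichever genotype the label gave. No library was moved to another genotype. The transporters were compared by the number in the title, number 1 (measured high Maf) over number 2 (measured low Maf), and also by label. The split by number was taken up with the Maf counts known, so that it is a comparison of measured Maf levels and not of verified genotypes. Both comparisons use the same 4 libraries.

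Gene counts ranged from 19368745 to 24687897 per library. Markers of the sorted cells were present in each library, with Foxp3 at 91.0 to 104 CPM and Cd4 at 920 to 998 CPM. Not all of them were level across the numbers. The summed CPM of 4 regulatory T cell markers was 4045 and 4080 in flox 1 and wt 1, against 2909 and 2407 in flox 2 and wt 2. Most of that gap lay in Ctla4, an inhibitory receptor, with 3344 and 3342 CPM in flox 1 and wt 1, against 2080 and 1627 CPM in flox 2 and wt 2 (log2 fold change 0.85, SE 0.12, edgeR quasi-likelihood adjusted p = 0.0270). Il2ra lay the other way, with 401 and 454 CPM in flox 1 and wt 1, against 510 and 503 CPM in flox 2 and wt 2. The part of these markers in the differences between transporters was not tested. Summed CPM of 4 B cell markers was 78.5 in flox 1, 43.0 in wt 1, 40.5 in flox 2 and 51.1 in wt 2. For 5 epithelial markers the sum was 292 and 133 in flox 1 and wt 1, against 198 and 290 in flox 2 and wt 2. For 5 myeloid markers it was 89.3 and 8.90 in flox 1 and wt 1, against 52.7 and 54.4 in flox 2 and wt 2. The stress chaperone Hspa1a set flox 2 apart, with 892 CPM there and 35.5 to 103 CPM elsewhere.

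Activated T cells take up amino acids for protein synthesis and for signalling through mTORC1, the kinase complex that couples nutrient supply to growth. The heavy chain CD98 (Slc3a2) pairs at the membrane with light chains such as LAT1 (Slc7a5), an exchanger of large neutral amino acids including leucine, and y+LAT2 (Slc7a6), an exchanger of cationic and neutral amino acids. CAT1 (Slc7a1) carries arginine and lysine without the heavy chain. ASCT1 (Slc1a4) and ASCT2 (Slc1a5) are sodium-dependent exchangers of small neutral amino acids, glutamine among them for ASCT2. SNAT1 (Slc38a1) and SNAT2 (Slc38a2) take up glutamine and other neutral amino acids together with sodium.

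Across the 8 carriers the clearest gap between libraries with high and low Maf was at Slc1a4, which did not pass the test over all genes. Slc1a5, its close relative and the most abundant carrier, lay lower where Maf was high. The heavy chain Slc3a2 and both SNAT genes lay modestly higher where Maf was high, and the light chains and CAT1 overlapped. Of the 8 members, 0 passed edgeR's quasi-likelihood test by number at an adjusted p of 0.05, where 1.81% of the 13022 genes tested passed (1.41% higher and 0.399% lower). DESeq2 called 1 member, Slc1a4, at a background of 5.01%, and limma-voom called 0. An unadjusted p under 0.05 by edgeR was seen for 5 members, 4 higher and 1 lower, beside 13.6% of all genes tested. The same 5 members had separate levels, with both libraries of one number above both of the other, where 45.2% of all genes did (22.5% higher and 22.7% lower). The median log2 fold change of the 8 was 0.27, that of all genes tested -0.01.

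**Figure D1:**
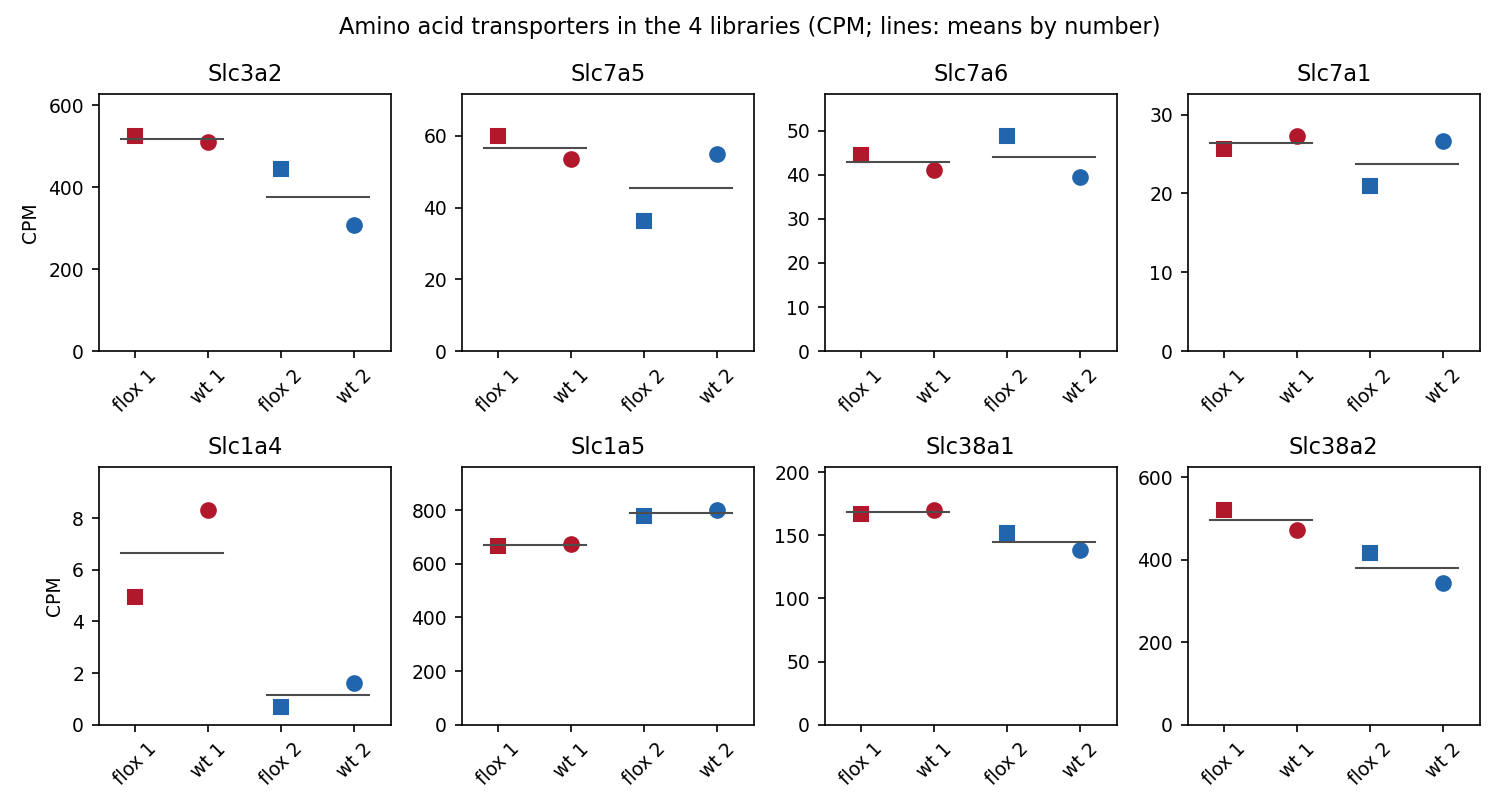
CPM of the 8 transporters (y axes, each from 0) in the 4 libraries (x axes), with squares for labelled flox, circles for labelled wt, red for number 1 and blue for number 2. Lines are means of the 2 libraries of a number. Slc1a4 lies at 4.96 and 8.31 in the libraries numbered 1 and at 0.677 and 1.63 in those numbered 2.

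The start of Slc1a4 is shown first because it had the largest gap among the members, and that of Slc43a1 (LAT3, a uniporter of branched-chain amino acids) because it was the only amino acid transporter outside the 8 to pass the test by number. Both windows run from 250 bases before to 50 bases after an annotated start and are RefSeq sequence of build GRCm38.p6, the assembly that mm10 names. The Slc1a4 window lies at chr11:20332664-20332963 on the minus strand and the Slc43a1 window at chr2:84840073-84840372 on the plus strand, each written 5′ to 3′ along its gene. Capitals mark motif matches.
Slc1a4: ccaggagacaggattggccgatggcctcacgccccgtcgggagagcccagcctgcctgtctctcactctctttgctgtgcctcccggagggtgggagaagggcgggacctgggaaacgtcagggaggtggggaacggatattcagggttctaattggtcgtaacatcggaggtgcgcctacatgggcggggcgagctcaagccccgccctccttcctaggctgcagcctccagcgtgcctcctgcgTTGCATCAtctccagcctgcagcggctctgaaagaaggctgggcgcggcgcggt
Slc43a1: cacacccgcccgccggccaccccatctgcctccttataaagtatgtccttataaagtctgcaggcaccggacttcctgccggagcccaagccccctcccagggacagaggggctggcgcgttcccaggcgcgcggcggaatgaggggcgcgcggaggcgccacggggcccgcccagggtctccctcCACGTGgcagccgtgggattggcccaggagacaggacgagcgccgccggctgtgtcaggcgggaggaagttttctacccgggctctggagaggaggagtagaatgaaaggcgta
Motifs were searched on both strands as exact letters. They were TGATGNAA, which pairs of ATF4 and C/EBP proteins bind, CACGTG, the E-box that Myc and Max bind, and TGCTGAC, the core of the MAF recognition element. The capitals in the Slc1a4 window are a match to TGATGNAA on the other strand, starting 4 bases before the start. A match to TGATGNAA was present in 4.0% of 32851 windows of the same length. In the Slc43a1 window they are a match to CACGTG, starting 64 bases before the start, and 7.2% of windows held one. RefSeq windows were at hand for 5 of the 8 members (7 windows), and TGCTGAC, present in 4.7% of all windows, matched in 0 of them. Of the same 7 windows, CACGTG matched in 0 and TGATGNAA in 1, the Slc1a4 window shown. A match describes letters and not a bound site.

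Slc1a4 (chromosome 11, 20302180 to 20332713 in mm10, minus strand) had 121 counts in flox 1 and 171 in wt 1, against 14 in flox 2 and 33 in wt 2. As CPM these were 4.96 and 8.31 in the libraries numbered 1 and 0.677 and 1.63 in those numbered 2. Both libraries with high Maf lay above both with low Maf. The log2 fold change of number 1 over number 2 was 2.52 (SE 0.54), a 5.72-fold difference, and the adjusted p by edgeR's quasi-likelihood test was 0.0947. The ratio of number 1 to number 2 was 7.32 within labelled flox (95% interval 4.20 to 13.8) and 5.10 within labelled wt (3.49 to 7.64), where these intervals cover counting error only. DESeq2 called the difference (adjusted p = 0.00138), as did edgeR without a filter on low counts (adjusted p = 0.00402, where 3.17% of 18575 genes passed) and edgeR without wt 2 (adjusted p = 0.0272). Without wt 1 its adjusted p was 0.428, the highest of the 4 fits that left out a library. In bulk RNA, fewer cells of a type that express a gene and less RNA per cell cannot be told apart.

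Slc1a5 (chromosome 7, 16781340 to 16798274, plus strand) lay in the other direction. It had 667 CPM in flox 1 and 675 in wt 1, against 780 in flox 2 and 801 in wt 2. The libraries of a number were close to each other and the numbers did not overlap. The log2 fold change was -0.24 with an SE of 0.07 (adjusted p = 0.213 by edgeR's quasi-likelihood test). Number 1 over number 2 was 0.856 within flox (0.837 to 0.875) and 0.843 within wt (0.824 to 0.863). Measured per exon length, Slc1a4 made up 0.784% and 1.29% of the summed level of both ASCT genes in flox 1 and wt 1, and 0.0922% and 0.216% in flox 2 and wt 2. ASCT2 transcripts thus made up nearly all of the ASCT pool in each of the 4 libraries.

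Among the subunits of heteromeric carriers, Slc3a2 (chromosome 19, 8706882 to 8723369, minus strand) was the more abundant and Slc7a5 and Slc7a6 lay far below it. Slc3a2 had 524 CPM in flox 1 and 511 in wt 1, against 444 in flox 2 and 309 in wt 2. Both libraries numbered 1 lay above both numbered 2, and wt 2 was the lowest. Its log2 fold change by number was 0.46 (SE 0.17, edgeR quasi-likelihood adjusted p = 0.333). Without flox 2, which left wt 2 as the lone library with low Maf, the log2 fold change was 0.74. Without wt 2 it was 0.22. The library flox 2 also had high Hspa1a, and the part of that in the result was not tested. The ratio of number 1 to number 2 was 1.18 within flox (1.15 to 1.21) and 1.66 within wt (1.60 to 1.71).

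Slc7a5 (chromosome 8, 121881150 to 121907694, minus strand) had 59.8 CPM in flox 1 and 53.5 in wt 1, against 36.1 in flox 2 and 55.0 in wt 2. The library labelled flox 2 was low and the other 3 were close together, so the numbers overlapped. The log2 fold change was 0.31 (SE 0.20, adjusted p = 0.593 by edgeR's quasi-likelihood test). Without flox 2 it was 0.04, and without wt 2 it was 0.65 with an adjusted p of 0.0504. The gene Gm20388 is annotated on the opposite strand across Slc7a5 and has no row in the count table, and the sources used here do not say whether counting used strand.

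Slc7a6 (chromosome 8, 106168857 to 106198706, plus strand) had 44.4 CPM in flox 1 and 41.2 in wt 1, against 48.7 in flox 2 and 39.6 in wt 2. By number the levels overlapped, and the log2 difference was -0.04 with an SE of 0.14 (edgeR quasi-likelihood adjusted p = 0.941). Its sign turned without flox 2 (0.11) and without wt 1 (0.01). Per exon length, the heavy chain stood at 5.74 and 6.18 times the sum of Slc7a5 and Slc7a6 in flox 1 and wt 1. In flox 2 and wt 2 it stood at 6.16 and 3.72 times, so that wt 2 was the library apart. Slc7a10, a light chain outside the 8, is not in that sum and was higher per exon length than either gene in each library. Slc7a5 held 62.4% and 61.6% of the summed level of Slc7a5 and Slc7a6 in flox 1 and wt 1, and 47.8% and 63.2% in flox 2 and wt 2.

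Slc7a1 (chromosome 5, 148327410 to 148399904, minus strand), the cationic carrier, had 25.6 CPM in flox 1 and 27.2 in wt 1, against 20.9 in flox 2 and 26.6 in wt 2. As for Slc7a5, flox 2 was the lowest library and the numbers overlapped. The log2 fold change by number was 0.15 (SE 0.16, edgeR quasi-likelihood adjusted p = 0.770) and was -0.01 without flox 2.

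The SNAT genes are neighbours on chromosome 15, Slc38a1 at 96571418 to 96642913 and Slc38a2 at 96687392 to 96699730, both on the minus strand. Slc38a2 had 520 CPM in flox 1 and 471 in wt 1, against 416 in flox 2 and 343 in wt 2. The libraries numbered 1 lay above those numbered 2, with a log2 fold change of 0.39 (SE 0.11) and an edgeR quasi-likelihood adjusted p of 0.207. Leaving out a library gave log2 fold changes from 0.25 (without wt 2) to 0.53 (without flox 2). By edgeR without a filter on low counts Slc38a2 passed narrowly (adjusted p = 0.04997), where 3.17% of 18575 genes passed. It did not pass by DESeq2 (adjusted p = 0.0609) or limma-voom (adjusted p = 0.208). Slc38a1 had 167 and 170 CPM in flox 1 and wt 1, against 152 and 138 CPM in flox 2 and wt 2. Here too the numbers were separate, and the log2 difference was 0.22 with an SE of 0.09 (edgeR quasi-likelihood adjusted p = 0.350). The ratio of number 1 to number 2 was 1.25 within flox and 1.37 within wt for Slc38a2, and 1.10 within flox and 1.23 within wt for Slc38a1.

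**Figure D2:**
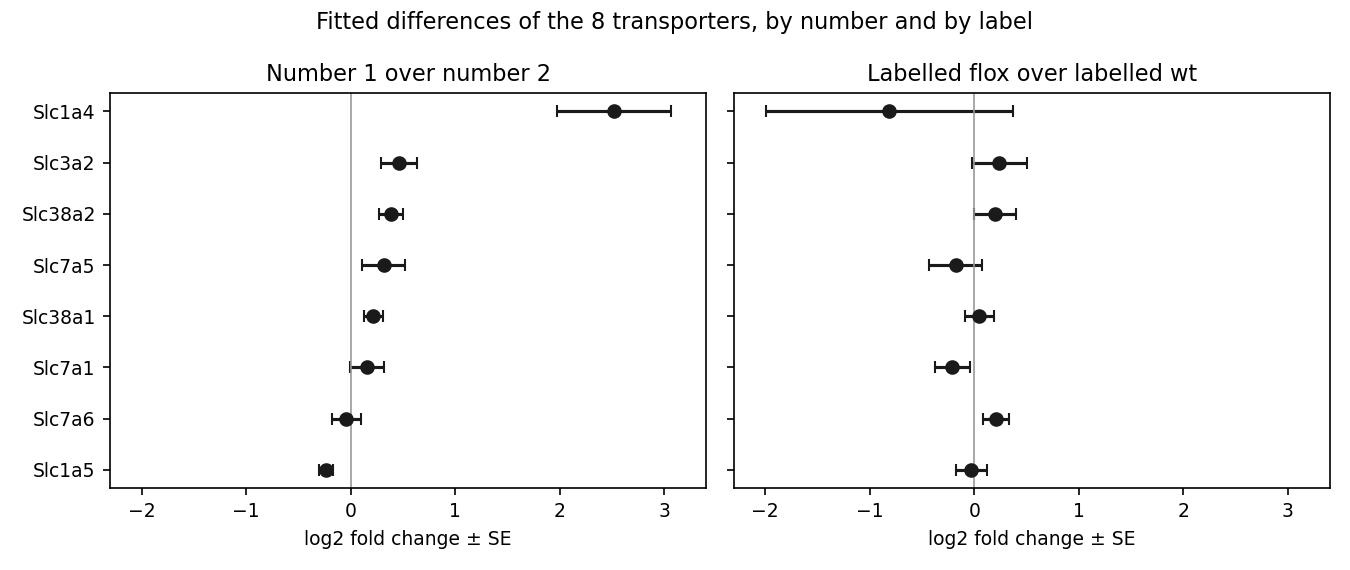
Fitted log2 fold changes (x axes) with standard errors for the 8 transporters (rows), on the left for number 1 over number 2 and on the right for labelled flox over labelled wt, from the edgeR fits over all genes. Slc1a4 stands at 2.52 by number, and by label the standard error of its value of -0.81 is 1.18.

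By label, no carrier stood apart from the spread between libraries of a label beyond the test's threshold. Each label held a library with high Maf and a library with low Maf, so a difference that followed Maf would widen that spread. The comparison by label could therefore not show such a difference. Of the 8, 0 passed edgeR's quasi-likelihood test for labelled flox over labelled wt, where 0.00768% of all genes tested passed, and 0 passed by DESeq2 (background 0.0922%) or limma-voom. An unadjusted p under 0.05 was seen for 0 of them, beside 1.98% of all genes. The log2 fold changes ranged from -0.81 for Slc1a4 (SE 1.18) to 0.24 for Slc3a2 (SE 0.26), each with an adjusted p = 1.000. Slc1a4 averaged 2.82 ± 3.03 CPM in labelled flox and 4.97 ± 4.73 CPM in labelled wt (SD, n = 2 each), so that the spread within a label exceeded the difference between labels. Levels were separate by label for 2 members, Slc7a6 (higher in labelled flox) and Slc7a1 (lower in labelled flox), where 27% of all genes had separate levels. Slc7a6 averaged 46.6 ± 3.04 CPM in labelled flox and 40.4 ± 1.15 CPM in labelled wt (SD, n = 2 each), a log2 fold change of 0.21 (SE 0.12). Slc7a1 averaged 23.2 ± 3.33 CPM in labelled flox and 26.9 ± 0.444 CPM in labelled wt (SD, n = 2 each), a log2 fold change of -0.21 (SE 0.17).

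Levels of different carriers were compared as TPM, counts per kilobase of merged exons scaled to a library sum of 1000000. Averaged over the 4 libraries, Slc1a5 had 684 ± 80.2 TPM, Slc3a2 492 ± 98.2 TPM and Slc38a2 193 ± 29.6 TPM (SD, n = 4). The next carriers were Slc7a5 at 53.9 ± 11.3 TPM, Slc7a6 at 37.1 ± 2.83 TPM and Slc38a1 at 35.4 ± 2.58 TPM. Lowest were Slc7a1 at 8.50 ± 1.09 TPM and Slc1a4 at 3.84 ± 3.38 TPM. Slc7a6 and Slc38a1 differed by less than their spread. With the longest transcript in place of merged exons, Slc38a1 had 62.8 TPM, above Slc7a5 at 42.5 TPM and Slc7a6 at 33.8 TPM, so the order of these 3 depends on the length used. The summed level of all 8 carriers was 1563 and 1529 TPM in flox 1 and wt 1, and 1500 and 1436 TPM in flox 2 and wt 2.

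**Figure D3:**
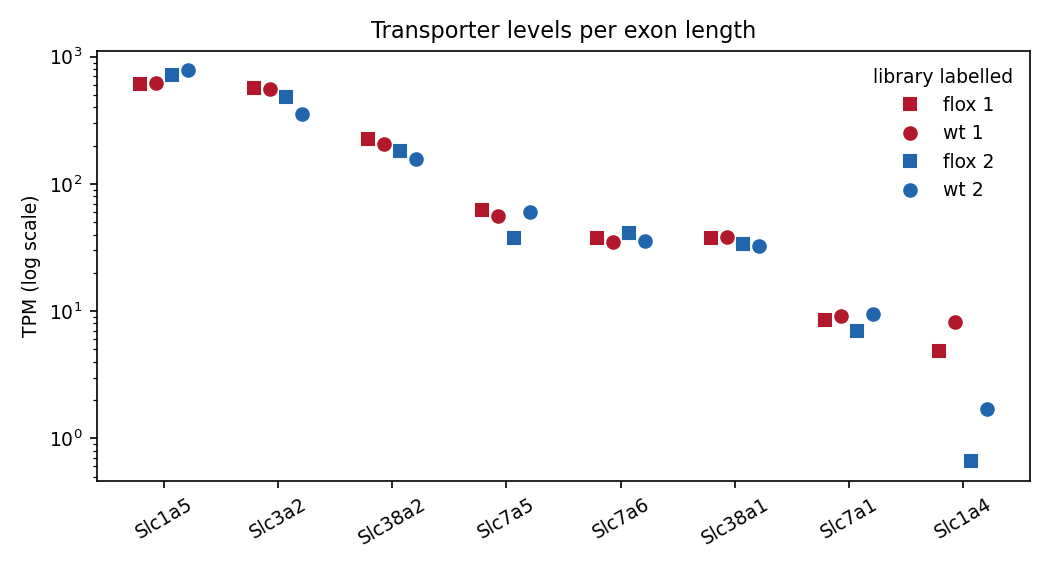
TPM (y axis, log scale) of the 8 transporters, ordered by mean, with 1 point for each library (squares labelled flox, circles labelled wt, red number 1, blue number 2). Slc1a5 is highest at 615 to 782 TPM, and Slc1a4, the lowest by mean, spans 0.662 to 8.14 TPM.

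The other amino acid transporters gave 1 call by number. Of 48 genes listed, 29 passed the filter on low counts, and 1 of these was higher in the libraries numbered 1 and 0 lower by edgeR's quasi-likelihood test. DESeq2 called 5 of the 29 (4 higher and 1 lower) and limma-voom 0. Over all genes tested, edgeR called 1.81% and DESeq2 5.01%. The median log2 fold change of the 29 was 0.08. The gene, Slc43a1, had 18.6 CPM in flox 1 and 25.7 in wt 1, against 6.58 in flox 2 and 8.50 in wt 2. Its log2 fold change was 1.55 (SE 0.24, edgeR quasi-likelihood adjusted p = 0.0351), with ratios of 2.83 within flox (2.33 to 3.46) and 3.02 within wt (2.54 to 3.61). The call was lost by limma-voom (adjusted p = 0.0644), with a minimum fold of 1.5 (adjusted p = 0.135) and without wt 1 (adjusted p = 0.252). Slc16a10 and Slc43a2, named after their values were seen, had separate levels and were called by DESeq2 but not by edgeR or limma-voom. Slc16a10, an aromatic amino acid carrier, had 6.19 and 5.25 CPM in flox 1 and wt 1, against 1.11 and 1.38 CPM in flox 2 and wt 2 (log2 fold change 2.19, SE 0.39, edgeR quasi-likelihood adjusted p = 0.0549). Slc43a2 (LAT4), a relative of Slc43a1, had 143 and 129 CPM in flox 1 and wt 1, against 97.5 and 104 CPM in flox 2 and wt 2 (log2 fold change 0.44, SE 0.09, edgeR quasi-likelihood adjusted p = 0.0947).

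Genes of the amino acid response, which ATF4 drives when amino acids run short, and of serine synthesis gave 2 calls among 23 tested of 29 listed, both higher in the libraries numbered 1, and 0 lower. DESeq2 called 4 (3 higher, Cebpb, Ppp1r15a and Ddit4, and 1 lower, Mthfd2) and limma-voom 2. Over all genes, 1.81% passed by edgeR and 5.01% by DESeq2. The median log2 fold change of the 23 was 0.09, with 16 positive and 7 negative. Over all 13022 genes tested, 6343 were positive and 6679 negative. The genes named below were picked by small p and do not stand for the whole list. Mthfd2 and Ppp1r15a, named after their values were seen, had log2 fold changes of -0.48 (SE 0.09) and 0.41 (SE 0.08). Their edgeR quasi-likelihood adjusted p was 0.0746 for Mthfd2 and 0.0679 for Ppp1r15a. Ddit4, which encodes REDD1, an inhibitor of mTORC1, had 71.2 CPM in flox 1 and 75.5 in wt 1, against 32.7 in flox 2 and 39.3 in wt 2. It rose in the libraries numbered 1 by 1.03 on the log2 scale (SE 0.13, edgeR quasi-likelihood adjusted p = 0.0170). Cebpb, which encodes a partner of ATF4, had 439 CPM in flox 1 and 444 in wt 1, against 304 in flox 2 and 264 in wt 2 (log2 fold change 0.64, SE 0.09, edgeR quasi-likelihood adjusted p = 0.0306). With a minimum fold of 1.5 neither passed (adjusted p = 0.147 for Ddit4 and 1.000 for Cebpb). Without flox 1 the adjusted p was 0.0534 for Ddit4 and 0.134 for Cebpb, and without wt 1 it was 0.138 for Ddit4 and 0.221 for Cebpb.

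Of 43 tested genes of amino acid sensing and mTORC1, 0 passed by number by edgeR's quasi-likelihood test, where 1.81% of all genes did. The median log2 fold change of the 43 was -0.03. An unadjusted p under 0.05 was seen for 7 of the 43, beside 13.6% of all genes. DESeq2 called 3, all higher in number 1 (Flcn, Sesn1 and Rheb), at its background of 5.01%, and limma-voom called 0. Levels were separate by number for 11 of the 43 in the higher direction and 12 in the lower, beside 22.5% and 22.7% of all genes. Flcn, encoding folliculin, had 152 and 149 CPM in flox 1 and wt 1, against 119 and 107 CPM in flox 2 and wt 2 (log2 fold change 0.41, SE 0.09, edgeR quasi-likelihood adjusted p = 0.0956). Sesn1, encoding a sestrin that restrains mTORC1, had 140 and 164 CPM in flox 1 and wt 1, against 114 and 109 CPM in flox 2 and wt 2. Rheb, the GTPase that activates mTORC1, had 185 and 176 CPM in flox 1 and wt 1, against 143 and 110 CPM in flox 2 and wt 2. Of 11 tested genes of the Myc network, 0 passed by edgeR's quasi-likelihood test and 3 had an unadjusted p under 0.05 (13.6% of all genes did), with a median log2 fold change of -0.01. DESeq2 called 1, Myc, at its background of 5.01%, and limma-voom called 0. Myc, a regulator of growth, had 388 and 475 CPM in flox 1 and wt 1, against 297 and 287 CPM in flox 2 and wt 2 (log2 fold change 0.56, SE 0.11, edgeR quasi-likelihood adjusted p = 0.0780). Mnt and Mxi1, which encode partners of Max that oppose Myc, had log2 fold changes of 0.39 (SE 0.13) and 0.34 (SE 0.12).

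**Figure D4:**
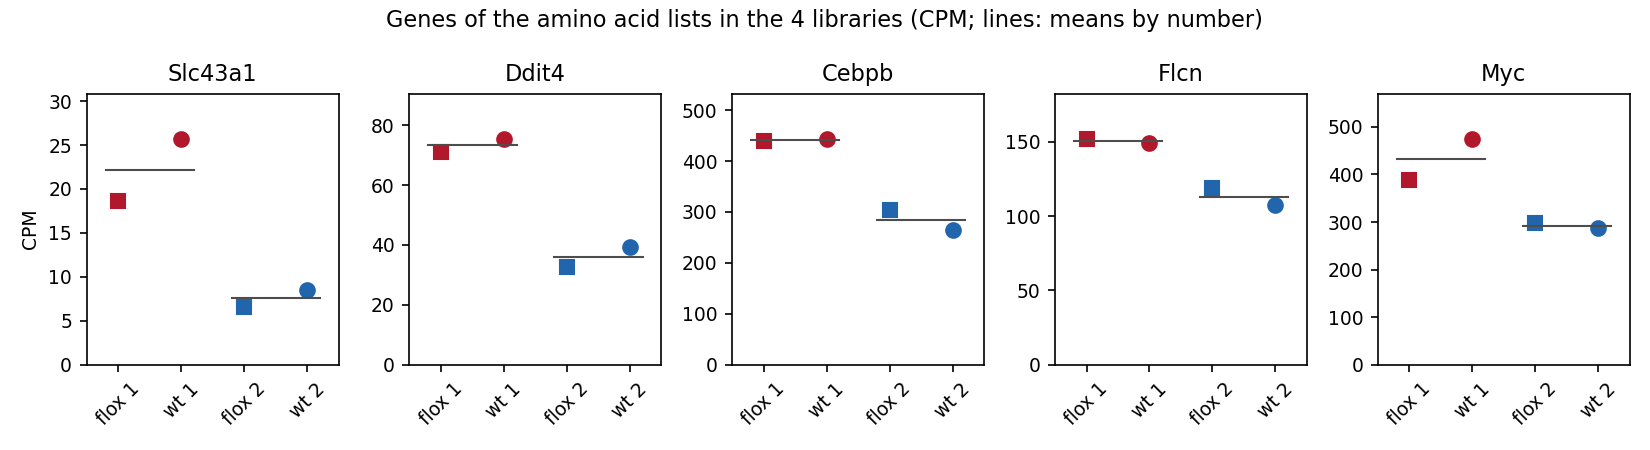
CPM (y axes, each from 0) of Slc43a1, Ddit4, Cebpb, Flcn and Myc in the 4 libraries (x axes), with squares for labelled flox, circles for labelled wt, red for number 1, blue for number 2 and lines for the means by number. In each gene both red points lie above both blue ones, from 18.6 and 25.7 against 6.58 and 8.50 CPM for Slc43a1 to 388 and 475 against 297 and 287 CPM for Myc.

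Cytosolic aminoacyl-tRNA synthetases and their scaffold genes, which load amino acids onto tRNA, stayed within a narrow range. Of the 23 listed all 23 were tested, and 0 passed by edgeR's quasi-likelihood test, by DESeq2 or by limma-voom, with 0 at an unadjusted p under 0.05. Over all genes tested, 1.81% passed by edgeR and 5.01% by DESeq2, and 13.6% had an unadjusted p under 0.05 by edgeR. Their log2 fold changes by number ran from -0.17 to 0.18, with a median of -0.04. Wars, for tryptophan, had 101 and 113 CPM in flox 1 and wt 1, against 92.1 and 97.6 CPM in flox 2 and wt 2. Yars, for tyrosine, and the scaffold gene Aimp2 had log2 fold changes of -0.11 (SE 0.11) and -0.17 (SE 0.13). Of 23 tested genes that use amino acids, 0 passed by edgeR's quasi-likelihood test, where 1.81% of all genes did. An unadjusted p under 0.05 was seen for 0 of the 23, beside 13.6% of all genes. The median log2 fold change of the 23 was -0.03. DESeq2 called 1, Odc1, at its background of 5.01%, and limma-voom 0. Odc1, which starts polyamine synthesis from ornithine, had 955 and 816 CPM in flox 1 and wt 1, against 713 and 462 CPM in flox 2 and wt 2 (log2 fold change 0.59, SE 0.23, edgeR quasi-likelihood adjusted p = 0.391). Bcat2, a branched-chain aminotransferase, had 39.4 and 43.1 CPM in flox 1 and wt 1, against 47.3 and 49.1 CPM in flox 2 and wt 2. By label, 0 genes of these 6 lists (29, 23, 43, 11, 23 and 23 tested) passed by edgeR's quasi-likelihood test, where 0.00768% of all genes did. An unadjusted p under 0.05 was seen for 3 of them, beside 1.98% of all genes. DESeq2, at a background of 0.0922%, and limma-voom called 0 as well.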

How the data were processed

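Libraries were built with a low-input mRNA kit, per the labels' protocols. TopHat2 2.1.1, HTSeq 0.6.1, edgeR 3.14 and build mm10 are named in the submitters' processing notes. Settings, annotation and strand handling are not stated there. The authors deposited raw counts per gene symbol (24061 gene rows and 5 counter summary rows, 66.6% to 67.2% of each column, left out). A second deposited table holds the authors' normalized signal for 10618 filtered rows, which entered no test. Its 42472 values matched, within a relative tolerance of 1e-06 and in 100% of cases, edgeR pseudo-counts recomputed with the libraries grouped by number, and 3.2% matched when grouped by label.

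The test of the counts was edgeR 4.0.16 in R 4.3.3 (filterByExpr, 13022 genes kept, TMM, robust quasi-likelihood fit, Benjamini-Hochberg adjustment over all genes, threshold 0.05), by title number and by labelled genotype. CPM uses TMM library sizes, and the SE is the log2 fold change over the root of F. A replicate field of the labels, 1 for wt and 2 for flox, was not used. With 2 libraries against 2, an exact permutation test cannot go below p = 0.333, so none was run. Alternatives were DESeq2 1.42.0 (253 genes without an adjusted p by number), limma-voom 3.58.1, other scalings and filters, blocks, a minimum fold and leaving out each library. The tests were checked on simulated data. Lengths and coordinates come from GENCODE M21, which held a single gene model for 94.3% of symbols. Ratio intervals are exact binomial intervals.

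Members and gene lists were chosen with earlier results of these data known. Named genes were the 8 members, Maf, called list genes (up to 6 a list) or else the 3 of smallest p, and abundant markers. A result for 2 of the genes so chosen is not reported here.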

Additional observations from a re-analysis of the deposited data

Results flagged for a closer look

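The log2 ratio of number 1 to number 2 had opposite signs within the labels for 2 carriers, with 1 library in each cell, so the difference was not tested. For Slc7a5 the log2 ratio of number 1 to number 2 was 0.73 within labelled flox and -0.04 within labelled wt, a difference of 0.77. The library labelled flox 2, the lowest for Slc7a5, also had the high Hspa1a level of 892 CPM, and the part of that in the result was not tested. For Slc7a6 the log2 ratio was -0.13 within labelled flox and 0.06 within labelled wt, a difference of -0.19. Within labelled wt the 95% intervals for counting error included no change for both carriers. The ratios there were 0.973 (0.894 to 1.06) for Slc7a5 and 1.04 (0.944 to 1.15) for Slc7a6. Within labelled flox they were 1.66 (1.51 to 1.81) and 0.912 (0.836 to 0.994).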

How the results depend on the processing

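By number, 236 genes passed. The count was 234 with DESeq2 size factors, 240 with library totals alone, 201 by limma-voom, 589 without a filter on low counts, 640 by DESeq2 and 60 with a minimum fold of 1.5. Leaving out a library gave 46 (without wt 1), 116 (without flox 1), 504 (without flox 2) and 525 (without wt 2). Members called by number were 0, against 2 without the filter (Slc1a4 and Slc38a2), 1 by DESeq2 (Slc1a4), and 0 to 2 when a library was left out, with 2 without flox 2 (Slc3a2 and Slc38a2) and 1 without wt 2 (Slc1a4). By label 1 gene passed, 2 without the filter, 12 by DESeq2, 0 by limma-voom (262 at an unadjusted p under 0.05) and 0 when any library was left out, and 0 members passed in each of these fits.

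Same-numbered libraries were tied by the number in the title and by their measured Maf level. Deviations of flox 1 and wt 1 from their label's mean correlated at 0.264 over 13022 genes. With the number as a replicate block beside the label, 1 gene passed, and with the label as a replicate block beside the number 212 did. Neither block called a member. Member fold changes that turned sign did so when a library was left out. By number the log2 range was -0.013 to 0.33 for Slc7a1 and -0.19 to 0.11 for Slc7a6. By label it was -0.58 to 0.14 for Slc7a5, -0.074 to 0.65 for Slc3a2, -2.87 to 0.79 for Slc1a4, -0.15 to 0.10 for Slc1a5, -0.090 to 0.20 for Slc38a1 and -0.0029 to 0.45 for Slc38a2. The median TPM of the 8 members was 45.5 with merged exons and 52.6 with the longest transcript. With a library left out, the lone library of a side is assumed to vary like the others. Slc1a4 had the fewest counts of the 8, 14 to 171 in a library.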

Other observations

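A few more transporters outside the 8 were named after their values were seen. Slc7a8 (LAT2), a partner of the heavy chain, had 10.98 CPM in flox 1 and 3.65 in wt 1, against 1.84 in flox 2 and 1.88 in wt 2 (edgeR quasi-likelihood adjusted p = 0.195 by number), and DESeq2 called it higher in number 1. The summed myeloid markers were also highest in flox 1, at 89.3 CPM, but lowest in wt 1, at 8.90 CPM, against 52.7 in flox 2 and 54.4 in wt 2. Their part in the Slc7a8 level was not tested. Slc7a9, a light chain of kidney and intestinal epithelium, had 3.20 and 1.85 CPM in flox 1 and wt 1, against 2.37 and 8.26 CPM in flox 2 and wt 2. Epithelial markers summed to 292 and 133 CPM in flox 1 and wt 1, against 198 and 290 CPM in flox 2 and wt 2, and their part in the Slc7a9 level was not tested. Slc7a10, a light chain that carries small neutral amino acids, had 81.4 and 63.5 CPM in flox 1 and wt 1, against 106 and 101 CPM in flox 2 and wt 2, with a log2 fold change by number of -0.52 (SE 0.13, edgeR quasi-likelihood adjusted p = 0.149). DESeq2 called Slc7a10 lower in number 1. Per exon length Slc7a10 had 148 and 116 TPM in flox 1 and wt 1, and 194 and 196 TPM in flox 2 and wt 2.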
